A study of Mus musculus with 25 samples.

Results

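Kinesin genes were followed through the knock-down and the return of RB in mouse pituitary tumors. All gene symbols that begin with *Kif* or *Kifc* and a number were taken from the tables of both RNA-seq experiments, which gave 41 genes of the 15768 listed in either table. The long-term table lists all 41 among 15315 genes, and the short-term table lists 39 among 14007, without *Kif4* and *Kif6*. Each one reached 10 reads in over 50% of the mice of some group, the minimum for a test. By their known roles, 13 were grouped as mitotic kinesins, 17 as transport kinesins, 6 as ciliary kinesins and 4 as other kinesins (*Kif2a*, *Kif12*, *Kif26a* and *Kif26b*). The last match by name, *Kif1bp*, encodes a kinesin-binding protein and no motor, and was kept apart.

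The pituitaries came from adult sh*Rb* mice, which carry the alleles *Rosa26*-rtTA and *Col1a1*-shRb5-4 and descend from 1 embryonic stem cell clone with 1 shRNA. Doxycycline (dox) in the drinking water makes rtTA, expressed from the *Rosa26* locus, switch on the shRNA against *Rb* together with GFP. Taking dox away switches both off, which lets the pituitary tumors that form in these mice express RB again. All mice had received dox, so that no untreated pituitary served as a control. In the long-term experiment, whose libraries were made by poly(A) selection, 3 female mice had 6 weeks of dox (6w+dox), 4 mice had 12 weeks of dox (12w+dox; replicates 1 and 2 female, 3 and 4 male), and 5 mice had 6 weeks of dox and then 6 weeks without it (12w-res; replicates 1 and 2 male, 3 to 5 female). In the short-term experiment, whose libraries were made by depletion of ribosomal RNA, 3 male mice had 16 weeks of dox by their labels (16w+dox), and the others were taken 1 day (1d-dox, 4 females), 3 days (3d-dox, 3 males) or 5 days (5d-dox, 3 females) after dox removal. Sex and time off dox therefore cannot be told apart at 1 and 5 days.

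Kinesins are ATP-driven motors that walk along microtubules or shorten them. Mitotic kinesins build the spindle, move chromosomes and bridge the midzone during cell division, so their transcripts are found mainly in cycling cells, where E2F, RB family proteins and the MuvB complex control many of their promoters. Transport kinesins carry vesicles and organelles in cells that do not divide, above all in neurons and in secretory cells such as the hormone cells of the pituitary, and ciliary kinesins build, shorten or signal from cilia.

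Levels are given as FPM, the fragments of a gene scaled to a common depth by the size factors of the authors. Reads on genes numbered 19066053 to 28968476 per mouse in the long-term and 9573101 to 13036900 in the short-term experiment. *Rb1* lay between 1.86 and 5.09 FPM in the 7 long-term mice on dox and between 16.1 and 20.2 FPM in the 5 mice of 12w-res, while in the short-term experiment it was 3.47 to 4.89 FPM at 16w+dox and 4.92 to 5.38 FPM at 5d-dox. The GFP reporter, listed in the short-term table alone, went from 1025 to 1360 FPM at 16w+dox to 9.34 to 15.2 FPM at 5d-dox. The summed melanotroph and corticotroph markers, *Pomc* among them, were at 96002 FPM or more in every long-term mouse and at 12469 FPM or more in every short-term mouse. Replicate pairs differed by more than counting error in both experiments, and each mouse counted as 1 sample.

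The promoters are shown first, since the 2 main classes differ in the words they hold. RefSeq promoters of GRCm38.p6, from 250 bases before to 50 bases after a start, were at hand for 32 of the 41 genes (36 promoters). They were searched on both strands for 3 kinds of words: CHR, at which the MuvB complex binds (TTTGAA or TTCGAA), the CCAAT box, bound by NF-Y (CCAAT), and E2F sites (TTTCCCGC, TTTCGCGC, TTTGCCGC or TTTGGCGC). None of these words contains another. A CHR word stood in 11 of 12 promoters of mitotic kinesins and in 1 of 13 promoters of transport kinesins (11 genes), a promoter of *Kif1a*. It stood in 19.2% of all 32851 promoters and in 13.5% of the 14695 promoters of genes in the long-term table. A CCAAT box stood in 8 of the 12 and in 4 of the 13, beside 37.4% and 37.1% of these 2 sets. An E2F word stood in 2 of the 12 and in 0 of the 13, beside 2.26% and 3.67%. The mitotic kinesin without a CHR word was *Kif18a*, and an E2F word stood in its promoter. The other mitotic kinesin with an E2F word was *Kif15*, which also held CHR words and fell after RB was restored. A match of letters is a description of the sequence and no evidence of binding.

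Shown are 150 bases of each promoter, the last 100 before the start and the first 50 of the transcript, 5′ to 3′ on the strand of the gene, with every searched word in capitals. The first 4 belong to mitotic kinesins that fell after RB was restored, *Kif18a* is the mitotic kinesin that was not called, and the last 2 are transport kinesins. The windows are chr19:37376282-37376431 (plus strand) for *Kif11*, chr9:61946750-61946899 (minus strand) for *Kif23*, chr17:33890584-33890733 (minus strand) for *Kifc1*, chr11:102925075-102925224 (minus strand) for *Kif18b*, chr2:109280638-109280787 (plus strand) for *Kif18a*, chr2:49619186-49619335 (plus strand) for *Kif5c* and chr2:153291316-153291465 (plus strand) for *Kif3b*.
*Kif11*: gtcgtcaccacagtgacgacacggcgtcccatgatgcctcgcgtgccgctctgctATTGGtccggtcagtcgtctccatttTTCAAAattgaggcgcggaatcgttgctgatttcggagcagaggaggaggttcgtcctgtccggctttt
*Kif23*: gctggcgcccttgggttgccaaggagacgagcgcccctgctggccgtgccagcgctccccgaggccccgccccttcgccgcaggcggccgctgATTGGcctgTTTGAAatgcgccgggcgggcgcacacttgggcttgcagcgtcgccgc
*Kifc1*: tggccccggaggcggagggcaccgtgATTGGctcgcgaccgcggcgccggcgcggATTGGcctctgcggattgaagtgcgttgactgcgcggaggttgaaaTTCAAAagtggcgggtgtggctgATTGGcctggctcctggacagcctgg
*Kif18b*: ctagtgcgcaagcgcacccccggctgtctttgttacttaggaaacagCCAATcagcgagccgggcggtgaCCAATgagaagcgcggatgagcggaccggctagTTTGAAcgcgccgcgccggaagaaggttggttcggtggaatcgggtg
*Kif18a*: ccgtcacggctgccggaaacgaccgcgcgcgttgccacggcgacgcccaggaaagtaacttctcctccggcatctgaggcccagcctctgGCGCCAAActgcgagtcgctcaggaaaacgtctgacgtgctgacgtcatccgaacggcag
*Kif5c*: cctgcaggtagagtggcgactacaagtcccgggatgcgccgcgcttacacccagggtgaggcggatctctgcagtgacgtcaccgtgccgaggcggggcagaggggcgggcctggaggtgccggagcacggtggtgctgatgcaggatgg
*Kif3b*: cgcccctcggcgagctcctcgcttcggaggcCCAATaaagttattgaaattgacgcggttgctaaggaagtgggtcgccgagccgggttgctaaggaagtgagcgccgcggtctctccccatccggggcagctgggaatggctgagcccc

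In these windows the CHR word (TTTGAA, or TTCAAA on the other strand) of *Kif11*, *Kif23*, *Kifc1* and *Kif18b* stood downstream of at least 1 CCAAT box (CCAAT, or ATTGG on the other strand). Over the whole promoters, 8 of 12 mitotic kinesins held both words. *Kif2c*, *Kif15* and *Kif20b*, which also fell, held CHR words without a CCAAT box. The window of *Kif18a* held neither, and its capitals mark the E2F word read on the other strand. *Kif5c* held none of the words and *Kif3b* a CCAAT box alone.

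To compare levels between genes, FPM were divided by the length of the longest GENCODE transcript in kilobases. Over the 12 long-term mice the transport kinesins led, with *Kif1a*, a carrier of synaptic and dense-core vesicles, at 31.4 ± 6.36 FPM per kb (SD, n = 12), *Kif5b*, a conventional kinesin heavy chain, at 23.5 ± 3.53, and *Kif1b*, a carrier of mitochondria and vesicles, at 19.04 ± 4.24. Over the mice the ranges of *Kif5b* overlapped those of both neighbours. Averaged over all 12 mice, whose groups differ, the highest mitotic kinesins were *Kifc1* (6.31 ± 5.33 FPM per kb), *Kif23* (4.05 ± 2.903) and *Kif22* (3.90 ± 3.03), and the order changed with the group. *Kifc1* led at 6w+dox (10.4 ± 1.74, n = 3) and at 12w+dox (10.5 ± 2.795, n = 4), there before *Kif11* (6.56 ± 0.947), whereas *Kif18a* led in 12w-res (3.46 ± 0.788, n = 5), before *Kif20a* (1.08 ± 0.209). Over all 12 mice *Kif9* (0.904 ± 0.303), *Kif24* (0.557 ± 0.332) and *Kif19a* (0.358 ± 0.211) were the highest ciliary kinesins, while at 12w+dox *Kif24* (0.872 ± 0.206) was above *Kif9* (0.659 ± 0.131). *Kif2a*, a microtubule depolymerase of neurons and spindles, led the others at 9.79 ± 1.18 and in each group, with *Kif12* at 1.27 ± 1.16 and *Kif26a* at 1.02 ± 0.668 over all mice, in an order that was the other way round in 12w-res (0.204 ± 0.0682 and 0.745 ± 0.129). Averaged over the 13 short-term mice, with an order that also varied between groups, *Kif1a* (29.2 ± 3.73 FPM per kb, SD, n = 13), *Kif1b* (17.1 ± 0.887) and *Kif5b* (14.6 ± 0.999) again led, and *Kif11* (3.38 ± 0.795), *Kifc1* (3.17 ± 0.681) and *Kif23* (2.399 ± 0.589) were the highest of the mitotic kinesins. *Kif24* (0.725 ± 0.132), *Kif27* (0.229 ± 0.0503) and *Kif9* (0.205 ± 0.0749) led the ciliary kinesins there, and *Kif2a* (5.504 ± 0.376), *Kif26a* (0.360 ± 0.177) and *Kif12* (0.269 ± 0.144) the others.

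To ask which kinesins respond to 6 weeks of restored RB, 12w-res was compared with tumors kept on dox for the whole 12 weeks (12w+dox). Genes were tested as log2(FPM + 0.5) with limma, and called genes are those with p under 0.05 after Benjamini-Hochberg adjustment over all genes and a log2 fold change beyond 1 in either direction. Of the 13 mitotic kinesins, 12 fell and 0 rose, with a median log2 fold change of -2.55, while 0 of 17 transport kinesins were called and their median was -0.02. Over all 41 genes 14 fell, and 5.04% of all genes tested were called lower and 6.24% higher. None of the 41 was called higher by limma, and 1, *Kif26b*, was by edgeR and by DESeq2 on the recovered reads. In all 12 mitotic kinesins that fell, every 12w-res mouse lay below every 12w+dox mouse, which 17.4% of all genes did in that direction. In bulk tissue, fewer cycling cells and less RNA per cell cannot be told apart. Fold changes are on the log2(FPM + 0.5) scale, which understates the change of low genes.

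The deepest falls were those of *Kif14*, *Kifc1*, *Kif11*, *Kif18b* and *Kif4*. *Kif14*, which works in cytokinesis, measured 9.53, 12.6, 12.4 and 12.8 FPM at 12w+dox and 0.312, 0.475, 0.319, 0.472 and 0.111 FPM in 12w-res, of which the lowest value rests on 2 reads. Its log2 fold change was -3.89 (standard error 0.18; limma, adjusted p = 6.92e-09). *Kifc1*, a minus-end-directed kinesin that focuses spindle poles, measured 16.6, 31.01, 28.9 and 22.03 FPM at 12w+dox and 1.51, 1.16, 1.41, 0.649 and 1.99 FPM in 12w-res, a log2 fold change of -3.77 (standard error 0.23; limma, adjusted p = 4.46e-08). Both genes were lower in all 5 mice with restored RB than in any mouse at 12w+dox, with group means 34.98 and 18.3 times as high at 12w+dox. *Kif11*, the tetrameric kinesin that pushes the spindle poles apart, measured 25.6, 32.3, 31.8 and 36.8 FPM at 12w+dox and 2.24, 2.64, 1.59, 2.19 and 1.82 FPM in 12w-res, and the ratio of the group means was 15.1 (log2 fold change -3.63, standard error 0.15; limma, adjusted p = 3.65e-09). *Kif18b*, which shortens astral microtubules, measured 8.06, 12.8, 11.5 and 12.8 FPM at 12w+dox and 0.728, 0.687, 0.4096, 0.472 and 0.387 FPM in 12w-res, with a log2 fold change of -3.50 and a standard error of 0.18. *Kif4*, a motor on chromosome arms and in the midzone, measured 9.88, 16.9, 15.7 and 17.01 FPM at 12w+dox and 0.676, 1.32, 1.05, 0.531 and 0.774 FPM in 12w-res, with a log2 fold change of -3.49 and a standard error of 0.22. These 5 genes formed a set apart from the other mitotic kinesins, whose log2 fold changes began at -2.58.

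The other 7 mitotic kinesins that fell kept a larger remainder. *Kif22*, a chromosome motor that pushes arms away from the poles, measured 14.97, 22.5, 25.2 and 16.3 FPM at 12w+dox and 2.496, 3.28, 2.87, 3.48 and 2.15 FPM in 12w-res (log2 fold change -2.58). *Kif15*, another plus-end motor of the bipolar spindle, measured 9.56, 12.4, 12.04 and 11.5 FPM at 12w+dox and 0.468, 1.48, 1.68, 1.77 and 2.98 FPM in 12w-res (log2 fold change -2.55). *Kif23*, the motor of centralspindlin, measured 17.8, 20.3, 18.97 and 19.9 FPM at 12w+dox and 2.704, 3.12, 2.82, 3.897 and 2.65 FPM in 12w-res (log2 fold change -2.49). In each of these genes the 2 groups were far apart beside the spread within them. *Kif2c*, a microtubule depolymerase at centromeres, measured 6.25, 11.8, 9.76 and 9.61 FPM at 12w+dox and 1.196, 1.27, 1.59, 1.53 and 1.16 FPM in 12w-res (log2 fold change -2.38). *Kifc5b*, a close copy of *Kifc1*, measured 6.73, 10.2, 12.6 and 8.46 FPM at 12w+dox and 1.404, 1.48, 1.46, 1.42 and 1.22 FPM in 12w-res (log2 fold change -2.37). Their longest GENCODE transcripts share 98.0% of 2298 aligned bases, so that reads can be split between *Kifc1* and *Kifc5b* and the separate values are uncertain. *Kif20b*, which acts late in cytokinesis, measured 13.9, 15.5, 17 and 14.6 FPM at 12w+dox and 1.87, 4.17, 3.96, 3.13 and 2.49 FPM in 12w-res (log2 fold change -2.16). *Kif20a*, which takes the Aurora B complex to the midzone, measured 14.5, 17.8, 21.6 and 17.6 FPM at 12w+dox and 4.004, 3.17, 4.23, 5.08 and 3.31 FPM in 12w-res (log2 fold change -2.05), the smallest of the 12 falls. The RefSeq gene of *Kif20a* shares 4930 bases with *Cdc23*, and whether the authors counted by strand is not given in the sources used here. For these 7 genes the standard errors lay between 0.15 and 0.29 on the log2 scale and the limma adjusted p values between 3.28e-08 and 1.63e-05.

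**Figure D1:**
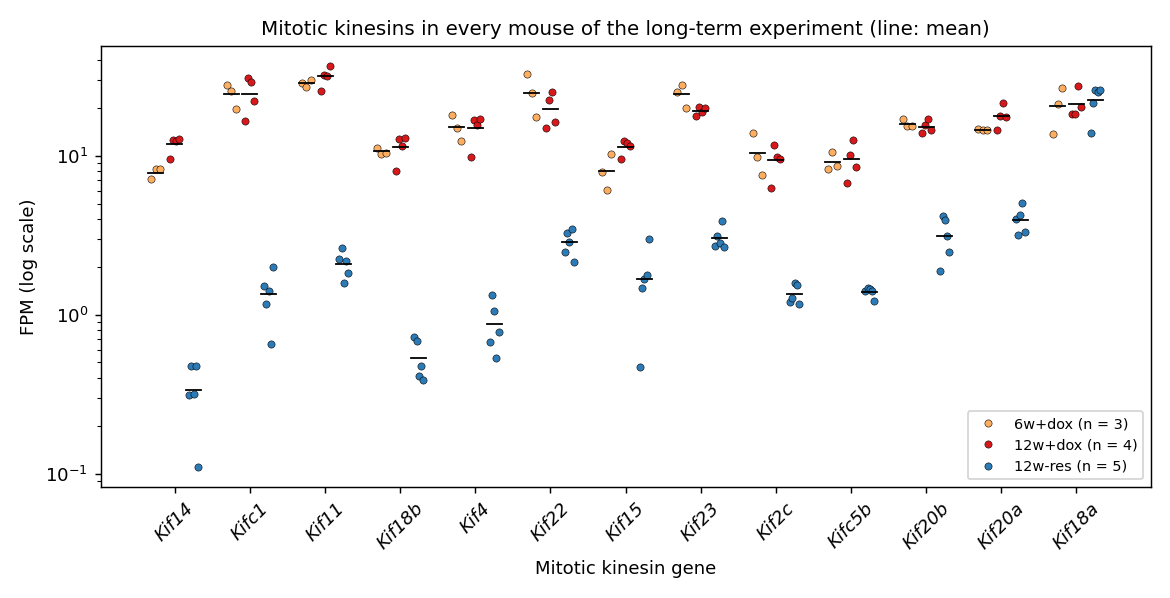
FPM of the 13 mitotic kinesins on a log axis, with 1 point for each of the 12 long-term mice, coloured by group, and a line at each group mean. The 5 mice of 12w-res lie below all 7 mice on dox for 12 genes, and overlap with them for *Kif18a* at the right.

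*Kif18a*, which damps the movements of chromosomes at the metaphase plate, was the exception. It measured 13.6, 21.3 and 26.5 FPM at 6w+dox, 18.3, 18.2, 27.4 and 20.3 FPM at 12w+dox and 13.99, 21.4, 26.03, 25.1 and 26.03 FPM in 12w-res, so that the 3 groups overlapped. Its log2 fold change was 0.08 (standard error 0.22; limma, adjusted p = 0.798) against 12w+dox and 0.15 (standard error 0.24; limma, adjusted p = 0.661) against 6w+dox. Against 12w+dox it was 0.48 in females and -0.44 in males. This difference between the sexes had an unadjusted p of 0.0345 (limma interaction) and did not pass the adjusted p. *Kif18a* (GRCm38.p6, chr2:109280738-109341749, plus strand) shares 593 bases with *Mettl15*, and the part of this overlap in its level was not tested. Per kilobase *Kif18a* made up 5.83% ± 0.975 (SD, n = 4) of the summed mitotic kinesins at 12w+dox, and in 12w-res it made up 35.9% ± 5.002 (n = 5).

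Beyond the mitotic class, *Kif24* and *Kif12* fell with restored RB. *Kif24*, a centriolar kinesin that restrains cilium formation, measured 4.08, 3.702, 5.97 and 5.75 FPM at 12w+dox and 0.676, 1.27, 1.41, 2.19 and 1.27 FPM in 12w-res, with a log2 fold change of -1.55 (standard error 0.26; limma, adjusted p = 0.000432). All 5 mice of 12w-res were below all 4 of 12w+dox, and a CHR word and CCAAT boxes stood in its promoter. In female mice alone *Kif24* was no longer called. The 6 ciliary kinesins ran from -1.55 to 0.63 on the log2 scale, and *Kif24* was the 1 called. *Kif12*, a kinesin known from kidney and liver, measured 5.06, 5.25, 11.2 and 6.67 FPM at 12w+dox and 0.988, 0.528, 0.592, 0.827 and 0.442 FPM in 12w-res, with a log2 fold change of -2.63 (standard error 0.31; limma, adjusted p = 2.07e-05). Its groups did not overlap, and none of the searched words stood in its promoter. Among the 13 kinesins that fell and have a promoter in the RefSeq table, 12 held a CHR word, beside 3 of 19 that were not called, and beside 27.4% of all called lower and 15.4% of all genes not called.

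No transport kinesin was called, and their values lay on both sides of 0. The log2 fold changes against 12w+dox ran from -0.90 to 0.40, with 8 above 0 and 9 below, and 0 of 17 were called by limma, edgeR or DESeq2. An unadjusted p under 0.05 (limma) was reached by 5 of 17, beside 7249 of all 15315 genes. Without the minimum fold change 20 of 41 kinesins and 37.8% of all genes passed an adjusted p under 0.05, 4 of them transport kinesins. *Kif5a*, a conventional heavy chain best known from neurons, measured 49.97, 41.6, 43.2 and 57.4 FPM at 12w+dox and 23.7, 29.5, 21.6, 25.5 and 27.5 FPM in 12w-res (log2 fold change -0.90, standard error 0.16; limma, adjusted p = 0.000802), and the groups did not overlap. *Kif21b*, a neuronal kinesin that also steadies microtubule tips, measured 92.99, 97.4, 115 and 218 FPM at 12w+dox and 51.2, 74.5, 71.3, 80.5 and 85.3 FPM in 12w-res (log2 fold change -0.78; limma, adjusted p = 0.0368). Without 12w+dox replicate 4, its highest mouse, the log2 fold change of *Kif21b* was -0.50 (limma, adjusted p = 0.133), and it was -0.27 in females and -1.35 in males. *Kif3b*, a subunit of kinesin-II, measured 30.9, 37.4, 34.2 and 44.5 FPM at 12w+dox and 24.9, 29.4, 23.9, 24.9 and 21.8 FPM in 12w-res (log2 fold change -0.54; limma, adjusted p = 0.0212). All 3 were lower in every 12w-res mouse, as 17.4% of all genes were, and short of the minimum fold change. Of the 6 kinesins past the adjusted p without that minimum, *Kif5a* alone stayed past it with each mouse left out in turn. *Kif1c*, a vesicle carrier found in many cell types, went the other way, from 21.5, 13.99, 16.6 and 22.5 FPM at 12w+dox to 23.6, 24.1, 24.9, 23.9 and 25.4 FPM in 12w-res (log2 fold change 0.40; limma, adjusted p = 0.0464), and turned to -0.24 when scaled by totals of recovered reads. *Kif9* of motile cilia (0.63; limma, adjusted p = 0.0282) and *Kif26b*, a kinesin that does not walk (0.90; limma, adjusted p = 0.0171), were higher on the same scale and also short of the minimum fold change. For the most abundant transport kinesins the log2 fold change was 0.09 (standard error 0.16) for *Kif1a*, 0.22 (0.10) for *Kif5b* and 0.07 (0.17) for *Kif1b*. The kinesin-binding *Kif1bp*, with 0.26 (limma, adjusted p = 0.0535), was called in none of the comparisons.

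The scaling bears on these small differences. When the authors' size factors were exchanged for totals of recovered reads, the median over all genes moved from -0.0040 to -0.61, and genes called higher went from 55.3% to 6.76% of all called. The 14 kinesins remained called under that scaling, their log2 fold changes between -4.34 and -2.09, and *Kif5a*, *Kif21b*, *Kif3b*, *Kif13b*, *Kif26a* and *Kif27* were then called lower too. Values near 0 took the other sign under it: *Kif18a* was at -0.56, *Kif1a* at -0.57, *Kif5b* at -0.44, *Kif1b* at -0.59 and *Kif1bp* at -0.39. These totals include *Pomc*, which took 39.1% to 43.2% of the reads on genes in 12w-res and 12.9% to 23% at 12w+dox. The markers of several other cells moved as well: 7 of 7 fibroblast and pericyte markers and 4 of 5 endothelial markers were called higher in 12w-res, with fibroblast and pericyte sums of 911.3 to 1509 FPM beside 165.5 to 509.7 FPM at 12w+dox, and endothelial sums of 115.8 to 129.5 FPM beside 31.9 to 66.2 FPM. The melanotroph and corticotroph sum, most of it *Pomc*, was 458751 to 581045 FPM beside 96002 to 198293 FPM. Of its 5 markers 2 were called higher (*Pcsk1* and *Pcsk2*), 0 lower, and 2 had a log2 fold change below 0. The sum of the other anterior pituitary hormone cells was 17366 to 35015 FPM beside 1220 to 13074 FPM. Of those 10 markers 2 were called higher (*Gh* and *Prl*), 0 lower, and 2 had a log2 fold change below 0. Of 4 folliculostellate and stem cell markers tested, 2 were called higher (*Aldh1a2* and *Sox9*). The part of all these cells in the kinesin results was not tested. A difference of this change between the sexes was tested as an interaction in limma: 0 of 41 kinesins and 5 of 15315 genes passed an adjusted p under 0.05, and 3 kinesins (*Kif18a*, *Kif24* and *Kifc3*) an unadjusted p under 0.05.

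**Figure D2:**
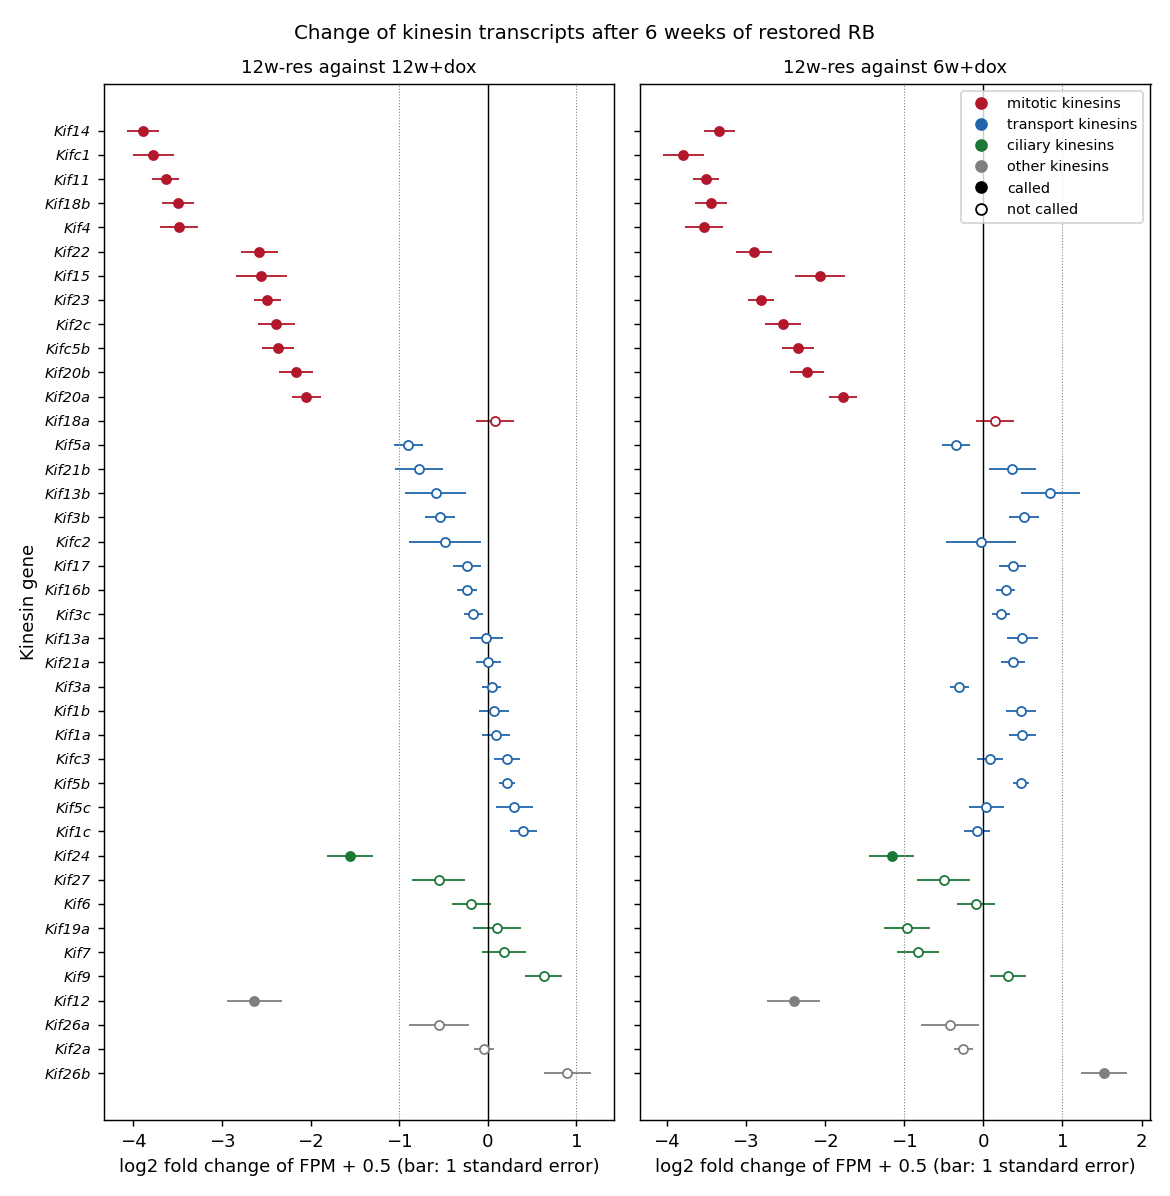
Log2 fold change of FPM + 0.5 for the 40 kinesin motors in 12w-res, against 12w+dox at the left and against 6w+dox at the right, with bars of 1 standard error, colours for the classes, filled points for called genes and dotted lines at 1 and -1. The red mitotic kinesins lie at -1.77 or below in both panels apart from *Kif18a*, and the blue transport kinesins lie between -0.90 and 0.85.

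Against the state at the time of dox removal (6w+dox), the same 12 mitotic kinesins, *Kif12* and *Kif24* fell. They made 14 of 41, beside 5.82% of all genes called lower, and 1 kinesin rose, beside 5.81% of all genes called higher. The median was -2.81 for mitotic kinesins and 0.37 for transport kinesins, of which 0 of 17 were called by limma, edgeR or DESeq2. An unadjusted p under 0.05 (limma) was reached by 10 of these 17, beside 6740 of all 15315 genes. In the same comparison 4 of 5 neural lobe markers (summed level 40.6 to 124.8 FPM at 6w+dox and 5.92 to 10.5 FPM in 12w-res) and 3 of 10 markers of other anterior pituitary hormone cells (58704 to 94210 FPM and 17366 to 35015 FPM) were called lower. So was *Aldh1a2* of 4 folliculostellate and stem cell markers tested. Called higher were *Pcsk1* and *Pcsk2* of 5 melanotroph and corticotroph markers, *Adgre1* of 7 macrophage markers and 4 of 7 fibroblast and pericyte markers. The part of these cells in the kinesin results was not tested. This comparison shares the 12w-res mice with the one above, so the 2 sets of values are given side by side. In all 12 mitotic kinesins the 12w-res mice were below every 6w+dox mouse, as 15.9% of all genes were. At 6w+dox *Kif11* measured 28.9, 26.99 and 29.9 FPM, *Kif14* 7.103, 8.24 and 8.196, *Kifc1* 27.7, 25.7 and 19.8, *Kif18b* 11.1, 10.3 and 10.5 and *Kif4* 17.99, 15.1 and 12.4. Their log2 fold changes were -3.50, -3.33, -3.79, -3.44 and -3.53, with standard errors of 0.17, 0.20, 0.26, 0.20 and 0.24 and limma adjusted p values between 1.66e-08 and 1.31e-07. The same 5 genes thus fell furthest. At 6w+dox *Kif22* measured 32.5, 24.8 and 17.4 FPM, *Kif23* 25.1, 28.1 and 19.9, *Kif2c* 13.9, 9.89 and 7.53, *Kifc5b* 8.21, 10.6 and 8.65, *Kif20b* 17.1, 15.4 and 15.3, *Kif15* 7.86, 6.06 and 10.3 and *Kif20a* 14.8, 14.4 and 14.4. The log2 fold changes of these 7 lay between -2.89 (*Kif22*) and -1.77 (*Kif20a*). *Kif12* measured 5.12, 3.12 and 10.6 FPM at 6w+dox (log2 fold change -2.39; limma, adjusted p = 0.000114) and *Kif24* 2.39, 3.43 and 5.22 FPM (log2 fold change -1.16; limma, adjusted p = 0.00644). Both stood highest in 6w+dox replicate 3, and without that mouse *Kif24* was no longer called (log2 fold change -0.90). Nor was *Kif24* called against 6w+dox in female mice alone or with a pseudocount of 1.

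*Kif26b* was the kinesin that rose. It measured 0.116, 1.02 and 0.331 FPM at 6w+dox, 1.26, 1.08, 0.554 and 0.921 FPM at 12w+dox and 1.82, 1.69, 1.91, 2.598 and 2.98 FPM in 12w-res, and its lowest value at 6w+dox rests on 2 reads. Set against 6w+dox, this gave a log2 fold change of 1.53 (standard error 0.29; limma, adjusted p = 0.00125), and all 5 mice of 12w-res were above the 7 mice on dox. Fibroblast and pericyte markers were higher in the same mice, with 4 of 7 called against 6w+dox, and their part in the level of *Kif26b* was not tested. Without the minimum fold change 20 of 41 kinesins and 33.8% of all genes passed an adjusted p under 0.05. These included *Kif5b* (0.48; limma, adjusted p = 0.00303), *Kif1a* (0.49; limma, adjusted p = 0.0382) and *Kif3b* (0.51; limma, adjusted p = 0.0437) with higher levels in 12w-res, and the ciliary *Kif19a* (-0.96; limma, adjusted p = 0.0218) and *Kif7* (-0.83; limma, adjusted p = 0.0277) with lower levels. Of these 5 *Kif5b* alone stayed past that adjusted p with each mouse left out in turn, and *Kif3b* ran from 0.35 without 6w+dox replicate 1 to 0.78 without 6w+dox replicate 3. *Kif5b* measured 121, 109 and 115 FPM at 6w+dox and 145, 171, 165, 157 and 164 FPM in 12w-res without overlap, and *Kif1a* 168, 201 and 236 FPM at 6w+dox and 224, 322, 256, 303 and 312 FPM in 12w-res with overlap. In either direction, 32.75% of all genes were without overlap between these 2 groups. When scaled by totals of recovered reads, which moved the median over all genes to -0.33 and genes called higher from 49.9% to 23.3% of all called, the log2 fold changes of *Kif5b*, *Kif1a* and *Kif3b* were 0.15, 0.16 and 0.19.

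To ask whether kinesins change while tumors progress with RB knocked down, 12w+dox was compared with 6w+dox. Of the mitotic kinesins 0 of 13 were called by limma, edgeR or DESeq2, and 1 passed an unadjusted p under 0.05 (limma), beside 5585 of all 15315 genes. The median log2 fold change of these 13 was 0.03, with a range from -0.32 to 0.56. The highest of them was *Kif14* (0.56, standard error 0.21; limma, adjusted p = 0.0696). Of the transport kinesins 3 of 17 rose, beside 3.15% of all genes called higher, and their median was 0.41. Of the ciliary kinesins 2 of 6 fell, beside 4.04% of all genes called lower. Neural lobe markers (4 of 5) and markers of other anterior pituitary hormone cells (6 of 10) were called lower in the same comparison. So were folliculostellate and stem cell markers (2 of 4 tested), endothelial markers (2 of 5) and fibroblast and pericyte markers (2 of 7). Of 5 melanotroph and corticotroph markers 1 was called higher (*Pax7*). The part of these cells in the kinesin results was not tested.

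*Kif3b* measured 13.7, 14.9 and 25.2 FPM at 6w+dox and 30.9, 37.4, 34.2 and 44.5 FPM at 12w+dox, which gave a log2 fold change of 1.06 (standard error 0.19; limma, adjusted p = 0.00245). The groups did not overlap, as in 25.2% of all genes in either direction. *Kif13b*, a carrier of signalling proteins to the cell edge, measured 2.56, 8.02 and 13.99 FPM at 6w+dox and 19.7, 19.03, 13.1 and 26.6 FPM at 12w+dox, beside 9.93, 17.2, 12.1, 11.99 and 12.3 FPM in 12w-res, which for 12w+dox against 6w+dox gave a log2 fold change of 1.43 (standard error 0.39; limma, adjusted p = 0.0196). *Kif21b* measured 44.01, 40.5 and 94.6 FPM at 6w+dox, and its 12w+dox values are given above (log2 fold change 1.15, standard error 0.31; limma, adjusted p = 0.0187). In both of these genes 6w+dox replicate 3 reached into the range of 12w+dox, and for *Kif21b* the mouse of highest level was 12w+dox replicate 4. Without 12w+dox replicate 4 none of the 3 was called, and without 6w+dox replicate 1 none of them was either (*Kif13b* was then at 0.81). *Kif7*, the ciliary regulator of Hedgehog signalling, measured 1.51, 0.802 and 1.95 FPM at 6w+dox, 0.314, 0.612, 0.277 and 0.531 FPM at 12w+dox and 0.312, 0.634, 1.001, 0.531 and 0.387 FPM in 12w-res (log2 fold change -1.01 for 12w+dox against 6w+dox; limma, adjusted p = 0.0203). *Kif19a*, which sets the length of motile cilia, measured 1.69, 2.49 and 2.52 FPM at 6w+dox, 0.733, 0.758, 0.832 and 0.838 FPM at 12w+dox and 0.936, 1.74, 0.865, 1.12 and 0.221 FPM in 12w-res (log2 fold change -1.07 for 12w+dox against 6w+dox; limma, adjusted p = 0.0245). Both lay below all 6w+dox mice in every 12w+dox mouse, as did 1893 of all 15315 genes. The levels of *Kif7* and *Kif19a* rest on 9 to 61 reads per mouse of these 2 groups. Without the minimum fold change 9 of 41 kinesins and 22.4% of all genes passed an adjusted p under 0.05, among them 7 transport kinesins, all higher at 12w+dox. The 6w+dox mice were all female, and in female mice alone (3 against 2) 0 of the 5 kinesins were called.

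**Figure D3:**
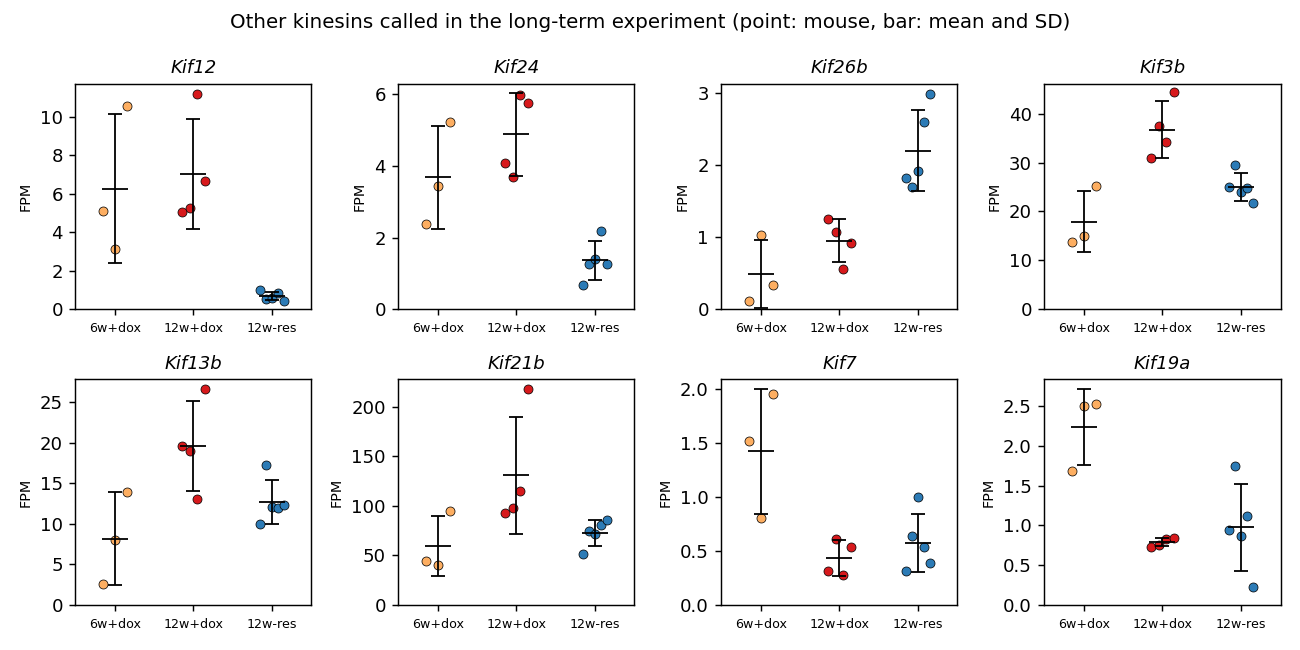
FPM of the 8 kinesins outside the mitotic class that were called in the long-term experiment, with 1 point per mouse and bars for the mean and SD of each group, on axes that start at 0. *Kif12* and *Kif24* are lowest in 12w-res, *Kif26b* is highest there, and *Kif3b*, *Kif13b* and *Kif21b* have their highest mean at 12w+dox.

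When scaled by totals of recovered reads, the median over all genes in this comparison moved to 0.29 and genes called higher from 43.8% to 77.0% of all called. *Kif3b*, *Kif13b* and *Kif21b* were still called higher (1.38, 1.74 and 1.47), whereas *Kif7* (-0.87) and *Kif19a* (-0.87) were no longer past the thresholds.

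To ask whether the fall of the mitotic kinesins begins within days of dox removal, each group of the short-term experiment was compared with 16w+dox. No kinesin was called by limma at 1, 3 or 5 days, nor at 5 days against 1 day, while 6, 10, 3 and 1 of 39 passed an unadjusted p under 0.05. Over all 13958 genes tested, 1823, 2323, 1889 and 883 passed it in the same order. edgeR on the recovered reads called 0 in each comparison, and DESeq2 called 1 (*Kif26a* at 3 days). Few genes of any kind were called, namely 0.043% of all genes tested at 1 day, 0.129% at 3 days, 0.193% at 5 days and 0.0143% for 5 days against 1 day. The median log2 fold change of the 12 mitotic kinesins was 0.24 at 1 day, 0.06 at 3 days and -0.01 at 5 days, with standard errors of single genes between 0.14 and 0.22. The lowest single values were -0.05 at 1 day, -0.47 at 3 days (*Kif18a*) and -0.18 at 5 days.

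*Kif11* measured 17.9, 10.7 and 15.3 FPM in the 16w+dox mice, 17.01, 19.2, 23.5 and 14.4 after 1 day, 16.1, 12.3 and 22.8 after 3 days and 12.9, 13.97 and 15.5 after 5 days. All 4 groups overlapped. *Kifc1* measured 8.41, 5.59 and 6.94 FPM in the 16w+dox mice, 8.74, 9.62, 10.6 and 5.402 after 1 day, 5.76, 6.47 and 8.11 after 3 days and 6.42, 7.27 and 7.79 after 5 days. *Kif23* measured 8.88, 5.37 and 6.76 FPM in the 16w+dox mice, 7.97, 9.101, 11.4 and 7.25 after 1 day, 8.799, 7.49 and 12.5 after 3 days and 6.39, 7.56 and 6.55 after 5 days. In all 3 genes 16w+dox replicate 2 was the lowest of its group. At 5 days the log2 fold changes were -0.02 (standard error 0.22) for *Kif11*, 0.05 (0.21) for *Kifc1* and -0.01 (0.20) for *Kif23*. From 1 day to 5 days, 2 groups of the same sex, all 12 mitotic kinesins had a log2 fold change below 0 (median -0.22, lowest -0.40 for *Kifc5b*), and 0 of 12 passed an unadjusted p under 0.05, so that no change was detectable at this number of mice.

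Among the other kinesins of the short-term experiment, *Kif1c* had the lowest adjusted p (limma), at log2 fold changes short of the minimum. It measured 10.3, 11.8 and 9.11 FPM in the 16w+dox mice, 6.99, 7.97, 7.28 and 7.39 after 1 day, 10.5, 8.69 and 11.3 after 3 days and 6.81, 7.25 and 7.68 after 5 days. The log2 fold change was -0.45 at 1 day (limma, adjusted p = 0.112) and -0.48 at 5 days (limma, adjusted p = 0.0803), and the female groups of 1 and 5 days lay below both male groups without overlap. Against 16w+dox, 11.2% of all genes were without overlap at 1 day and 19.3% at 5 days, in either direction. DESeq2 gave adjusted p = 0.0132 and 0.0142 for *Kif1c* at 1 and 5 days, short of the minimum fold change. The summed fibroblast and pericyte markers were 44.8 to 78.4 FPM in the same female groups beside 75.8 to 153.1 FPM in the males (0 of 7 called at 1 day and 1 lower at 5 days). Endothelial sums were 6.70 to 11.9 FPM beside 16 to 29 FPM, with 1 of 5 markers called lower (*Cdh5*) at each time. Sums of other anterior pituitary hormone cells were 23.5 to 107.2 FPM beside 173.1 to 907 FPM, with 1 of 10 markers called lower (*Lhb*) at each time. The part of these cells in *Kif1c* was not tested. *Kif26a*, a kinesin without motor activity, measured 2.02, 0.374 and 1.38 FPM in the 16w+dox mice, 0.928, 2.54, 3.46 and 3.46 after 1 day, 3.71, 4.45 and 3.33 after 3 days and 2.08, 3.14 and 1.49 after 5 days. Its 3d-dox mice were above all 16w+dox mice, as in 1484 of all 13958 genes (log2 fold change 1.42, standard error 0.40; limma, adjusted p = 0.121; DESeq2, adjusted p = 0.0354). The median of the transport kinesins was -0.05 at 1 day, -0.03 at 3 days and -0.04 at 5 days. *Kif1a* measured 232, 215 and 240.1 FPM at 16w+dox and 274, 246 and 281 FPM after 5 days (log2 fold change 0.22; limma, adjusted p = 0.308), and *Kif5b* and *Kif1b* were at -0.08 and -0.0026 on the same scale, with standard errors of 0.08 and 0.07.

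**Figure D4:**
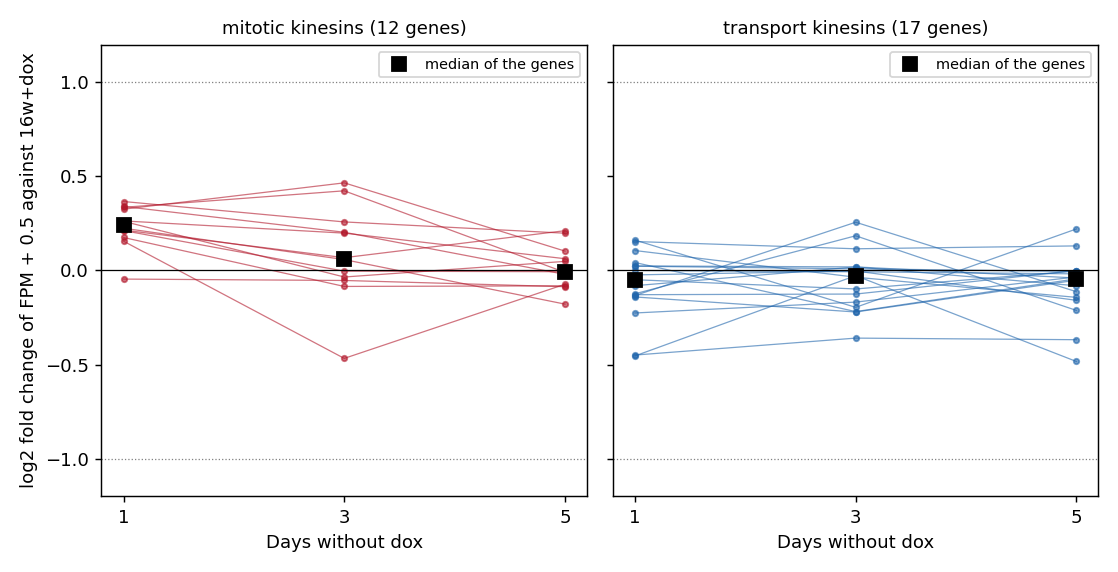
Log2 fold change of FPM + 0.5 against 16w+dox at 1, 3 and 5 days without dox, with a line for each of 12 mitotic kinesins (left) and 17 transport kinesins (right), black squares for the median and dotted lines at the minimum fold change of 1 and -1. No line reaches the dotted lines, and the mitotic median goes from 0.24 to -0.01.

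Seen as a share of all kinesin transcripts, mitotic kinesins took a smaller part after 6 weeks of restored RB, and the groups taken within days overlapped. Per kilobase, mitotic kinesins made up 29.1%, 27.5% and 21.7% of the summed kinesin level in the mice of 6w+dox, 17.8%, 25.4%, 29.03% and 19.5% at 12w+dox, and 4.52%, 4.56%, 5.45%, 5.28% and 4.74% in 12w-res. Every 12w-res mouse was below every mouse on dox. Transport kinesins made up 66.1% ± 3.56 (SD, 3 mice) at 6w+dox, 70.8% ± 5.48 (4 mice) at 12w+dox and 88.6% ± 0.583 (5 mice) in 12w-res, while their summed level was 144.0 ± 17.2, 175.9 ± 30.1 and 171.8 ± 15.1 FPM per kb. The summed mitotic level was 56.3 ± 5.14, 55.9 ± 9.13 and 9.52 ± 1.12 FPM per kb in the same order. In the short-term experiment the mitotic share was 13.3% ± 2.51 (SD, 3 mice) at 16w+dox, 15.7% ± 2.43 (4 mice) after 1 day, 14.9% ± 3.03 (3 mice) after 3 days and 13.3% ± 0.875 (3 mice) after 5 days, and the groups overlapped. The 2 experiments differ in library preparation and in the scaling of FPM, and *Kif4* is not listed in the second, so their shares are not compared. The share is a sum over chosen members and was not tested.

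**Figure D5:**
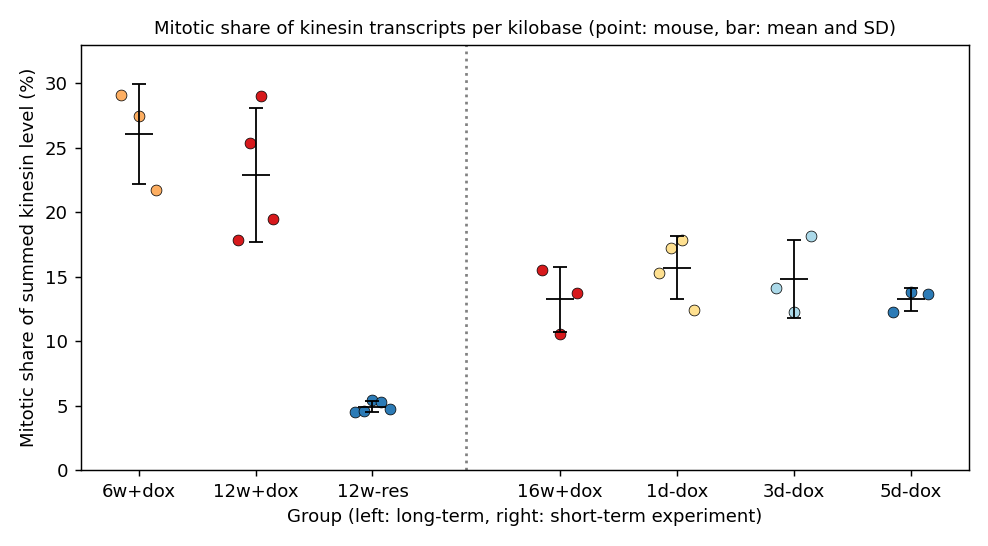
Mitotic kinesins as a percentage of the summed FPM per kilobase of all kinesin motors, with 1 point per mouse and bars for the mean and SD of each group, long-term groups left of the dotted line and short-term groups right of it. The 12w-res mice lie between 4.52% and 5.45%, below the 17.8% to 29.1% of the mice on dox.

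The partners of the mitotic motors at the spindle and midzone fell in nearly all cases. Of 18 such genes, 17 fell in 12w-res against 12w+dox (median log2 fold change -3.24, beside 5.04% of all genes called lower) and 17 against 6w+dox (median -3.39, beside 5.82%). In 12w+dox against 6w+dox 0 were called, beside 4.04% of all genes called lower. There 1 passed an unadjusted p under 0.05 (limma), beside 5585 of all 15315 genes. *Kntc1* of the kinetochore (-4.18, standard error 0.21), *Prc1*, the midzone bundler that binds *Kif4* (-3.45, 0.17), and *Tpx2*, a spindle assembly factor that binds *Kif11* (-3.40, 0.17), had the lowest p values against 12w+dox. *Racgap1*, which forms centralspindlin with *Kif23*, went from a mean of 77.9 FPM at 12w+dox to 19.8 FPM in 12w-res (-1.95), and *Cenpe*, a kinesin of the kinetochore outside the naming rule, from 12.97 to 1.63 FPM (-2.66). The 1 gene not called was *Numa1*. In the short-term experiment 0 of 18 were called by limma, with 4, 2, 0 and 1 at an unadjusted p under 0.05 at 1, 3 and 5 days and for 5 days against 1 day. Of all 13958 genes, 1823, 2323, 1889 and 883 were under it in the same order.

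Of 17 tested light chains and cargo adaptors of the transport motors, 1 fell and 0 rose in 12w-res against 12w+dox and also against 6w+dox, a share near the 5.04% and 5.82% of all genes called lower. That gene was *Hap1*, an adaptor of kinesin and dynein cargo, with a mean of 389 FPM at 12w+dox, 352 FPM at 6w+dox and 171 FPM in 12w-res (-1.19, standard error 0.14, against 12w+dox, and -1.05, 0.15, against 6w+dox, log2 fold changes). *Mapk8ip2* (-0.66; limma, adjusted p = 0.000294) and *Trak1* (-0.58; limma, adjusted p = 0.00186), a mitochondrial adaptor, followed by p value against 12w+dox. From 6w+dox to 12w+dox 0 of 17 were called, with *Mapk8ip2* at 0.77 (limma, adjusted p = 0.000969) and 4 at an unadjusted p under 0.05, beside 5585 of all 15315 genes. Of 23 genes of cytoplasmic dynein and dynactin, the motor that walks the other way, 1 rose in 12w-res against 12w+dox, 1 rose and 2 fell against 6w+dox, and 2 fell in 12w+dox against 6w+dox, beside the 6.24%, 5.81% and 3.15% of all genes called higher and the 5.04%, 5.82% and 4.04% called lower in these comparisons. *Dynll1*, a light chain shared with other complexes, averaged 142 FPM at 6w+dox, 40.6 FPM at 12w+dox and 87.4 FPM in 12w-res (-1.74 for 12w+dox against 6w+dox and 1.09 for 12w-res against 12w+dox, log2 fold changes). *Dync1i1*, an intermediate chain of neuronal dynein, rose against 6w+dox (1.69, standard error 0.19), *Dynlt1a* (-1.41) and *Dynlrb2* (-1.63) fell, and *Dynlrb2* also fell from 6w+dox to 12w+dox (-1.26). No gene of these 2 lists was called by limma in the short-term experiment, where 3 to 5 adaptors and 3 to 4 dynein or dynactin genes passed an unadjusted p under 0.05 at the 3 times against 16w+dox. Of all 13958 genes, 1823 to 2323 passed it at these times.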

How the data were processed

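Pituitary RNA from 12 mice (long-term) and 13 mice (short-term) had been sequenced. The authors mapped reads to mm10 with STAR and deposited, for RefSeq genes that reached 10 reads in over 50% of the mice of any condition, a normalized signal per mouse: FPM from the size factors of DESeq2. The counting tool and its use of strand are not given in the sources used here. The deposited values are whole multiples of what 1 read is worth, so reads were recovered (100% of 183780 and 182091 values within 0.1 read). Groups follow the labels, and each mouse is 1 sample. Left out were 2 lines of the long-term table without a name and 4 lines of the short-term table that name no gene.

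log2(FPM + 0.5) of all genes past the same minimum (15315 and 13958) was fitted with limma 3.58.1 in R 4.3.3, with a trended prior variance and all groups of an experiment in the fit, and adjusted by Benjamini-Hochberg over all genes. Called means p under 0.05 after this adjustment and a log2 fold change beyond 1 in either direction. The code was tested on simulated data. Alternatives were edgeR 4.0.16 and DESeq2 1.42.0 on the recovered reads, other pseudocounts, minimums, scalings and samples, a replicate block, sex as a covariate and each mouse left out in turn. Lengths are those of the longest GENCODE vM21 transcript, and positions and promoters are RefSeq GRCm38.p6, which matched 41 and 32 of 41 genes.

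Members and lists were chosen with earlier results of these data known. Named with values in every mouse of the long-term experiment were all kinesins called there, and none was called in the short-term experiment. Of those not called, the 3 with the highest level per kilobase in each class and those past an adjusted p under 0.05 in a comparison of 12w-res were named, and of the partner lists the called genes and the 3 of lowest p. *Racgap1* and *Cenpe* were named as partners within these called genes, and *Kif18a*, *Kif1bp*, *Numa1*, the promoter of *Kif5c*, *Kif14* at 12w+dox against 6w+dox and *Kif1c* and *Kif26a* in the short-term experiment were chosen after their values were seen. Intervals of counting error were not computed, since the spread between mice is larger.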

Additional observations from a re-analysis of the deposited data

Results flagged for a closer look

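For the 20 kinesins called in the long-term experiment, the mice of each group of 4 or 5 were searched for 1 value far from the others by Dixon's criterion, in 40 pairs of gene and group. In 2 pairs a mouse stood apart, and chance alone gives about 1 in 20. *Kif14* was at 9.53 FPM in 12w+dox replicate 1, beside 12.4 to 12.8 FPM in the other 3 mice of that group. *Kifc5b* was at 1.22 FPM in 12w-res replicate 5, beside 1.40 to 1.48 FPM in the other 4. Both genes were called lower in 12w-res in every fit that left out 1 mouse.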

How the results depend on the processing

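The 14 kinesins called in 12w-res against 12w+dox were kept in all 12 fits that left out 1 mouse (14 to 14 called), and the 15 called against 6w+dox in 11 of 12 (15 to 16 called). With at least 10 reads required in every mouse, 9 were called in each of these comparisons, since 31 of 41 kinesins were then tested. The 5 calls in 12w+dox against 6w+dox were less stable: 1 to 5 were called with 1 mouse left out, 3 with a pseudocount of 1, with 10 reads in every mouse, with totals of recovered reads and with only these groups in the fit, 9 without a minimum fold change, 2 with sex as a covariate and 0 in female mice alone. Without 6w+dox replicate 1 only *Kif19a* was left, without 6w+dox replicate 2 *Kif7* and *Kif13b*, and without 12w+dox replicate 4 *Kif7* and *Kif19a*. The cause was not tested. In the short-term experiment DESeq2 called 1 kinesin at 3 days, and all fits that left out 1 mouse called 0. *Kif1c* in 12w-res against 12w+dox changed sign with totals of recovered reads (-0.24; limma, adjusted p = 0.328). For the 49 pairs of a kinesin and a comparison past an adjusted p under 0.05, 1151 of 1209 alternative values kept the direction and the call, 36 lost a call and 21 gained one. Of 15 such pairs short of the minimum fold change, 2 stayed past the adjusted p with each mouse left out. Of the 230 pairs not past it, 90 changed sign with a mouse left out and 60 under another setting. Replicate numbers were not taken as pairs, since deviations of same-numbered mice correlated at -0.17 to 0.24 (10 pairs) and -0.21 to 0.17 (18 pairs). With the replicate number as a block, 14, 15 and 2 kinesins were called in the long-term comparisons, in the order above, and 0 in the short-term ones. With 3 or 4 mice per group and standard errors of 0.14 to 0.22 for mitotic kinesins, small short-term changes could not be detected.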
